A study of Homo sapiens with 2 samples.

Results

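A-to-G mismatches were examined in the transcripts of 3 genes, EEF1G, EEF1B2 and EEF1D, which encode the subunits of the translation elongation factor complex eEF1B. The genes were taken by their hg19 intervals, EEF1G on chromosome 11 from 62327073 to 62341460 (minus strand), EEF1B2 on chromosome 2 from 207024309 to 207027653 (plus strand) and EEF1D on chromosome 8 from 144661867 to 144679845 (minus strand). Every listed transcript A position in these intervals was used, 867 of the 4736485 positions listed in either library of the series. EEF1G had 315, EEF1B2 had 290 and EEF1D had 262. The cells were HEK-293T, an established line derived from human kidney, and carried a CIRTS-hADAR biosensor. They were sequenced as 1 library without the small molecule ABA and 1 library with it, at a dose and for a time not given in the sources used here. CIRTS systems are engineered proteins that bind chosen RNAs, here joined to a human ADAR. Both libraries came from cells with the biosensor, so neither measures cells without it. ADAR enzymes deaminate adenosine to inosine in RNA, and inosine is read as G. The genes were chosen by name and interval with A-to-G shares of these same 2 libraries known, so the A-to-G values are given as a description with no test. With 1 library per condition there is no replicate check. All intervals given are 95% intervals and describe counting error, not the spread between cultures.

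During translation elongation, the GTP-binding factor eEF1A carries aminoacyl-tRNA to the ribosome and leaves as the GDP-bound form. The eEF1B complex exchanges that GDP for GTP and so returns eEF1A to its active form. EEF1B2 and EEF1D encode the exchange subunits, and EEF1G encodes the subunit with a glutathione-transferase-like domain that holds the complex together. These transcripts are abundant in growing cells and are spliced, so their reads fall into separate runs of covered positions. The enzymes that edit A to I act on double-stranded RNA and depend on the bases next to the target A.

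The sites with the largest differences between the libraries are shown first, since they are the single positions described below. Each line gives the transcript-strand pattern around a site, 10 bases to each side, 5′ to 3′, with the site as the capital letter. The deposited files give A positions of each strand alone, so a marks a listed transcript A, t marks a T that reads of the opposite strand list, and n marks any base not listed, which may lie in an intron. The 6 sites are those whose A-to-G share was at least 5 percentage points higher with ABA.
EEF1G site 1, chr11:62338560-62338580, minus strand: nnnantnanaAtnnaaannan
EEF1G site 2, chr11:62339090-62339110, minus strand: nanntnntnnAntnnntnann
EEF1G site 3, chr11:62334985-62335005, minus strand: nnnnnnnnnnAnannnnnnnn
EEF1G site 4, chr11:62327121-62327141, minus strand: nnnannannnAnnnnnnnnna
EEF1G site 5, chr11:62327887-62327907, minus strand: nnnaannnnaAnnannnnaan
EEF1B2 site, chr2:207025418-207025438, plus strand: naaaannaaaAnnnnannnnn
In 3 of these 6 patterns the base on the 5′ side of the site was a listed A, and in 0 of them the base on the 3′ side was. Of all nuclear positions with 20 A or G reads in each library, 30.6% had a listed A on the 5′ side and 31.3% on the 3′ side. EEF1G site 1 lay between a listed A and a T.

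Without ABA, 51092343 base reads were listed at 4079392 positions. With ABA, 45277712 were listed at 3518802 positions. The median depth was 10 reads in both. The members were deeper, with medians of 74 and 79 reads for EEF1G, 29.5 and 30 for EEF1B2, and 31 and 32 for EEF1D, without and with ABA. Of the 867 member positions, 812 were listed in both libraries and 665 had at least 20 A or G reads in each.

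EEF1G had the highest A-to-G rate of the 3 genes in both libraries. The rate is the share of G reads among A and G reads, summed over positions. Without ABA, EEF1G had 50 G reads of 25818, a rate of 0.194% (0.144 to 0.255). With ABA it had 116 of 25029, a rate of 0.463% (0.383 to 0.556). Both intervals lay apart, and the ratio was 2.39 (1.70 to 3.40).

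EEF1B2, an exchange subunit, had 4 G reads of 9365 without ABA, a rate of 0.0427% (0.0116 to 0.109). With ABA it had 15 of 9095, a rate of 0.165% (0.0923 to 0.272). The ratio of 3.86 had a wide interval (1.23 to 16.0), and both rates' intervals overlapped. Without the 1 position that held 4 of its G reads the ratio was 2.84 (0.84 to 12.2), and without segment 2, the run of positions around it, 2.80 (0.671 to 16.4), and both intervals reach below 1. EEF1D, the other exchange subunit, had 3 G reads of 7035 without ABA, 0.0426% (0.00879 to 0.125), and 10 of 7567 with ABA, 0.132% (0.0634 to 0.243). Its ratio was 3.10 (0.798 to 17.5), so the counts do not set its direction.

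In order of level, over all listed positions, EEF1G stood above EEF1B2 and EEF1D in both libraries by more than the counting intervals. EEF1G was also deeper. At mean depths of 20 to under 50 reads its intervals overlapped theirs, and at 50 to under 100 reads they overlapped those of EEF1B2. In the first class the rates with ABA were 0.211%, 0.174% and 0.148% for EEF1G, EEF1B2 and EEF1D. In the second they were 0.540% (0.427 to 0.673) for EEF1G and 0.215% (0.0865 to 0.443) for EEF1B2. There EEF1D, with 15 positions, had 0 of 861 with ABA, which allows up to 0.348%, below the EEF1G interval. Without ABA it had 0 of 756, which allows up to 0.397% and does not separate it from EEF1G. EEF1B2 and EEF1D lay within each other's intervals in both libraries. Pooled, the 2 exchange subunits had 7 G reads of 16400 without ABA (0.0427%, 0.0172 to 0.0879) and 25 of 16662 with ABA (0.150%, 0.0971 to 0.221). This is a ratio of 3.52 (1.48 to 9.63). Over all nuclear positions, of chromosomes 1 to 22 and X, the rates were 0.0560% and 0.0953%, a ratio of 1.70. Without variant-like positions, whose share reached 35% in a library, they were 0.0386% and 0.0776%, a ratio of 2.01 (1.98 to 2.05). No member position was variant-like. RefSeq lists 8 pseudogenes named after each of the 3 genes, so reads that fit a copy as well are uncertain. The nuclear ratio of 2.01 lay within the interval of the ratio of each of the 3 genes.

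**Figure D1:**
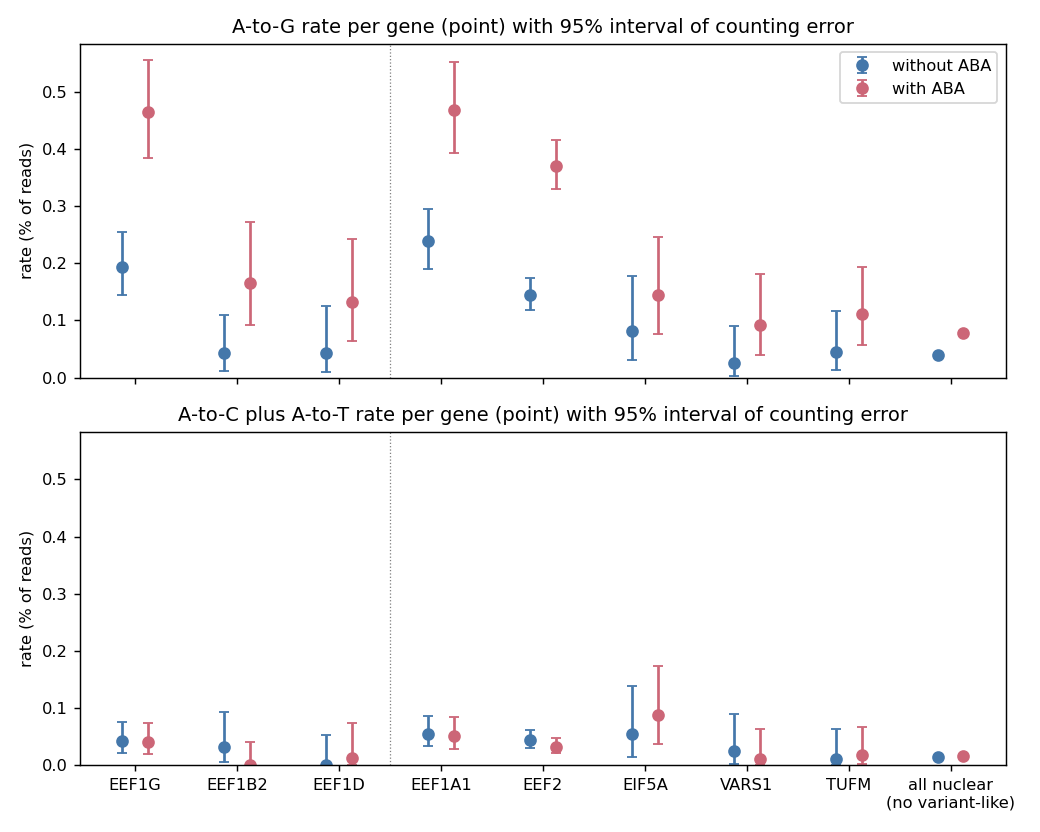
A-to-G rate (upper panel) and A-to-C plus A-to-T rate (lower panel), in percent of reads, for the 3 eEF1B genes, 5 other elongation genes and all nuclear positions without variant-like ones; points are rates and bars are 95% intervals of counting error. EEF1G stands at 0.194% without ABA and 0.463% with ABA, above EEF1B2 and EEF1D, while its other mismatches stood at 0.0427% and 0.0401%.

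Mismatches other than A-to-G were few in the members, and whether their ratio between the libraries differs from that of A-to-G was not tested. Reads with C or T at an A position numbered 11 in EEF1G without ABA, 0.0427% (0.0213 to 0.0763), and 10 with ABA, 0.0401% (0.0192 to 0.0738), a ratio of 0.94 (0.358 to 2.44). EEF1B2 had 3 such reads without ABA and 0 of 9080 with ABA, which allows a rate of up to 0.0330%. EEF1D had 0 of 7032 without ABA, which allows up to 0.0427%, and 1 with ABA. Over all nuclear positions the same kinds of read made up 0.0158% without ABA and 0.0176% with ABA, and their ratio was 1.11 (1.08 to 1.15). The EEF1G interval holds both that ratio and the A-to-G ratio of EEF1G. Reads of the opposite strand covered 151 positions within the 3 intervals. No A-to-G mismatch was found there, in 0 of 1590 reads in the library without ABA and in 0 of 565 in the other, which allow rates of up to 0.189% and 0.531%.

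Among member positions with 20 reads in each library, the 2 largest differences were both in EEF1G. Site 1, at 62338570, had a G in 2 of 100 reads without ABA (2.0%, 0.243 to 7.04) and in 15 of 80 with ABA (18.8%, 10.9 to 29.0). Site 2, at 62339100, had a G in 0 of 57 reads without ABA, which allows a share of up to 5.26%, and in 12 of 73 with ABA (16.4%, 8.79 to 27.0). At both, the intervals of the 2 libraries lay apart. They lie in neighbouring runs of covered positions.

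The 3 next EEF1G sites had no G read without ABA and between 5 and 7 with it. Site 3, at 62334995, had 0 of 71 and 7 of 78 reads (8.97%, 3.69 to 17.6), and it is the listed A nearest the 5′ end of its segment, a run of covered positions. Site 4, at 62327131, had 0 of 83 and 6 of 91 (6.59%, 2.46 to 13.8). Site 5, at 62327897, had 0 of 58 and 5 of 99 (5.05%, 1.66 to 11.4). The intervals of these 3 overlapped between the libraries, since a count of 0 at such depths allows shares of up to 4.23%, 3.61% and 5.17%.

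The remaining EEF1G sites with at least 3 G reads were smaller. Position 62340122 had 0 of 121 and 3 of 89 reads (3.37%), and position 62334469 had 1 of 167 (0.599%) and 3 of 122 (2.46%). In EEF1B2 the single such site, at 207025428, had a G in 0 of 23 reads without ABA, which allows up to 13.0%, and in 4 of 32 with ABA (12.5%, 3.51 to 29.0). In EEF1D no position with 20 reads in both libraries had more than 1 G read. Of all 359090 nuclear positions with 20 reads in each library, 0.177% had at least 3 G reads in either. All 8 member sites had a higher share with ABA, as did 537 of the 637 nuclear sites, and choosing sites by G reads favours the library with more of them. None of the 8 had an A-to-C or A-to-T read in either library.

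By size alone, a share at least 10 points higher with ABA was found at 3 of the 665 member positions with 20 reads, 2 in EEF1G and 1 in EEF1B2. A share at least 10 points lower was found at 0. Of all nuclear positions with that depth, 0.0234% were higher by this rule and 0.00167% lower. With 10 reads required in each library, 3 of 774 member positions were higher and 0 lower, against 0.068% and 0.0228% of nuclear positions. With 50 reads required, 2 of 301 were higher and 0 lower, against 0.0521% and 0.00348%. A change of 5 points was passed upward by 6 of 665 and downward by 0, against 0.229% and 0.0582%. A change of 20 points was passed upward by 0, against 0.00111%. Since the genes were chosen with A-to-G values known, nothing is read from the difference. The largest fall of a member position was 3.85 points, at 2 EEF1B2 positions with 1 G read of 26 without ABA.

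**Figure D2:**
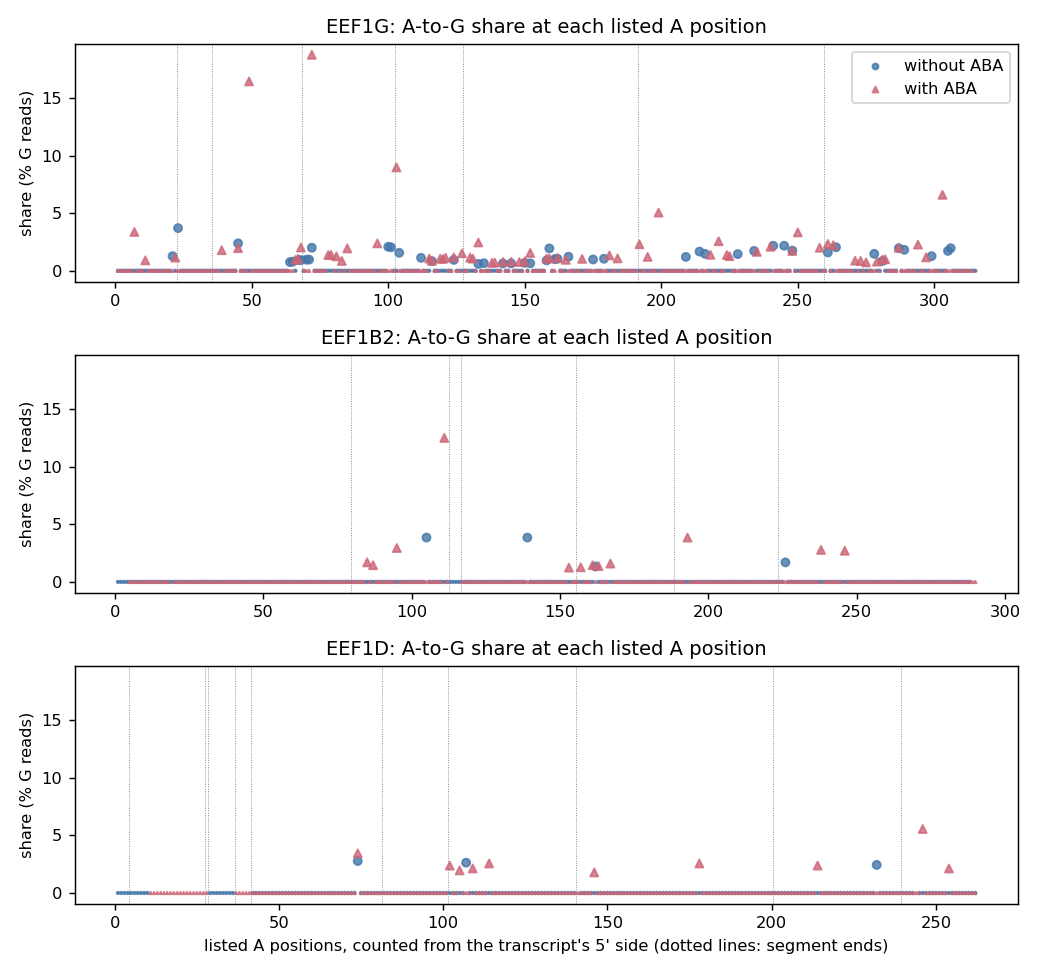
A-to-G share in percent at each listed A position of EEF1G, EEF1B2 and EEF1D, in order from the 5′ side of the transcript; circles are the library without ABA and triangles the library with ABA, with small marks at 0 and dotted lines at segment ends. In EEF1G 2 triangles stand at 18.8% and 16.4%, and in EEF1B2 1 stands at 12.5%, while EEF1D has single G reads alone.

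Beside these sites, EEF1G carried scattered G reads in all 8 of its segments without ABA and in 7 of them with ABA. It had a G read at 46 of 315 positions (14.6%) without ABA and at 65 of 314 (20.7%) with ABA, and 18 of the 93 positions with a G read had one in both. Over all nuclear positions the shares with a G read were 0.476% and 0.904%, and 2251 of 48865 had one in both, at a lower median depth. In EEF1G, 42 positions without ABA and 51 with ABA held 1 G read each, and the highest count without ABA was 2. The 7 sites with at least 3 G reads in either library held 3 of 50 G reads (6.0%) without ABA and 51 of 116 (44.0%) with ABA. The other 299 positions with 20 reads had 47 and 65 G reads, rates of 0.188% and 0.268%, a ratio of 1.43 (0.965 to 2.12). Leaving out sites for their G reads, most of which were in the ABA library, lowers this ratio by construction. Over all nuclear positions the same step left rates of 0.0612% and 0.104%, a ratio of 1.70 (1.65 to 1.74). There the step also left out the variant-like positions, so this ratio is not comparable with that of all nuclear positions. Among nuclear positions that were not variant-like, the sites left out held 9.06% of G reads without ABA and 17.3% with ABA. The step thus lowers the nuclear ratio too. Among the 306 EEF1G positions with 20 reads, the share was higher with ABA at 62, lower at 31 and 0 in both libraries at 213. Of all nuclear positions at that depth, 3.3% were higher and 1.87% lower.

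Covered positions of EEF1G formed 8 segments, runs of listed positions at most 100 nt apart, numbered here from the 5′ side. They were not matched to annotated exons. The A-to-G rate was higher with ABA in 7 of the 8, which are the 7 with 1000 or more reads in each library. Of 8355 nuclear segments with that many reads, 56% were higher and 26.2% lower, and the others had no G read. Segments 3, 4 and 5, which hold sites 2, 1 and 3, had the highest rates with ABA. Segment 3, from 62339013 to 62339152, had 0.213% without ABA (5 reads) and 0.762% with ABA (18 reads), a ratio of 3.58 (1.28 to 12.4). Segment 4, from 62338438 to 62338577, had 0.245% (6 reads) and 0.875% (22 reads), a ratio of 3.57 (1.40 to 10.8). Segment 5, from 62334873 to 62334995, had 0.171% (4 reads) and 0.638% (14 reads), a ratio of 3.73 (1.17 to 15.6).

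The 3 segments toward the 3′ end had smaller ratios between the libraries, with intervals that overlap those of segments 3, 4 and 5. Segment 6, with the most reads, had 14 of 7494 reads (0.187%) and 20 of 6540 (0.306%), a ratio of 1.64 (0.786 to 3.50). Segment 7 had 0.195% and 0.419%, and segment 8, at the 3′ end, had 0.247% and 0.438%. Segment 1 had 1 G read of 2415 and 5 of 2026. Segment 2, with 13 positions, was the 1 segment that went the other way, with 2 of 626 reads (0.319%) and 0 of 755, which allows up to 0.397%. The intervals of all segments overlapped between the libraries, apart from segment 4. Without the sites of at least 3 G reads, segments 3, 4 and 5 had 5, 4 and 4 G reads without ABA and 6, 7 and 7 with ABA.

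**Figure D3:**
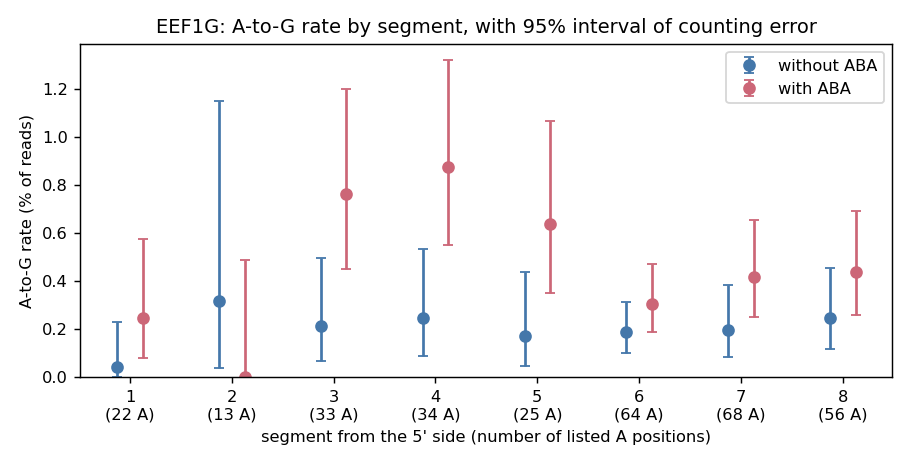
A-to-G rate in percent of reads for the 8 segments of EEF1G in order from the 5′ side, with 95% intervals of counting error; blue is the library without ABA and red the library with ABA. Segments 3, 4 and 5 stand at 0.762%, 0.875% and 0.638% with ABA, while without ABA all but segment 1 lie between 0.171% and 0.319%.

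The level without ABA was already high along EEF1G compared with other covered segments. The segments were picked by summed reads, not by depth per position. Nuclear rates were higher at deeper positions, as given below, so the comparison is not matched for depth. Among the 8355 nuclear segments, the median rate was 0.0324% without ABA and 0.0673% with ABA. Of the 7 EEF1G segments with that many reads, 6 lay above at least 92.0% of all such segments without ABA and above at least 93.9% with ABA. The exception was segment 1, above 54.6% without ABA and 91.1% with ABA.

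EEF1B2 had 7 segments, of which 5 had a higher rate with ABA and 2 had no G read. Segment 4 is among the 5 on 1 G read in each library, at 1929 and 1743 reads. Of the 6 segments with 1000 or more reads in each library, 5 were higher and 0 lower, beside 56% and 26.2% of nuclear segments. Segment 2, from 207025314 to 207025433, held 7 of the 15 G reads with ABA, 0.489% (0.197 to 1.004), against 1 of 1328 without ABA, 0.0753% (0.00191 to 0.419). Of these 7 reads, 4 were at the site 207025428. Segment 5, from 207026763 to 207026828, had 1 of 1687 reads and 4 of 1603 (0.249%), each at a different position. Segment 1, at the 5′ end, had 0 G reads of 1452 without ABA and 0 of 1317 with ABA, which allow up to 0.207% and 0.228%. In all, G reads were at 4 positions without ABA and 12 with ABA, and 0 of these 16 positions had one in both, beside 2251 of 48865 over all nuclear positions. Outside the 1 site, the counts were 4 and 11 G reads.

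EEF1D had 11 segments, 4 with a higher rate with ABA, 1 with a lower rate and 6 with no G read. Segments 6 and 10 had 1 G read in each library, so that their order follows from read depth. Of the 3 segments with 1000 or more reads in each library, 2 were higher and 1 was lower, beside 56% and 26.2% of nuclear segments. The 5 segments on the 5′ side were thinly covered, 4 of them in 1 library alone, and held no G read. Segment 8, from 144663225 to 144663498, had 1 G read of 1048 without ABA (0.0954%) and 4 G reads of 1277 with ABA (0.313%, 0.0854 to 0.80). Segment 9, with the most reads, had 0 of 2329 and 2 of 2785. Segment 7 had no G read among 752 and 675 reads. Each of the 3 G reads without ABA and the 10 with ABA was at a position of its own within its library, and 1 position was shared. Single reads at this depth do not tell editing from error.

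Neighbouring bases were next compared, since the files show whether the adjacent genomic base is also a listed A. At a segment end the neighbour in the transcript may lie in another segment, and the position then counts as having no A there. EEF1G site 3 is such a position on its 5′ side. Covered EEF1G positions with an A on the 5′ side had 16 G reads of 7125 without ABA (0.225%) and 52 of 6749 with ABA (0.770%, 0.576 to 1.01). Those without had 34 of 18584 (0.183%) and 64 of 18168 (0.352%, 0.271 to 0.450). With ABA the rate was higher beside a 5′ A by more than the intervals, and without ABA it was not. The ratio between libraries was 3.43 (1.93 to 6.44) beside a 5′ A and 1.93 (1.25 to 3.01) elsewhere, with overlapping intervals.

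In EEF1G, the rate was lower beside an A on the 3′ side, with ABA by more than the intervals and without ABA with overlapping ones. EEF1G positions with a 3′ A had 6 G reads of 7242 without ABA (0.0829%, 0.0304 to 0.180) and 12 G reads of 6852 with ABA (0.175%, 0.0905 to 0.306). Those without a 3′ A had 0.238% (0.173 to 0.320) and 0.576% (0.471 to 0.697). None of the 7 EEF1G sites with at least 3 G reads had a 3′ A. Without these sites the rates with ABA were 0.175% (0.0905 to 0.306) with a 3′ A and 0.304% (0.228 to 0.3975) without one, with overlapping intervals. Nuclear positions with 20 A or G reads in each library, without variant-like ones, went the same way with ABA, 0.142% with a 5′ A against 0.117% without one, and 0.0747% with a 3′ A against 0.148% without one. Of the 8 member sites with at least 3 G reads, 3 had a 5′ A and 0 had a 3′ A. Among the 637 such nuclear sites, 37.8% had a 5′ A and 10.2% had a 3′ A, against the 30.6% and 31.3% of all nuclear positions of that depth. EEF1B2 did not show a lower rate beside a 3′ A with ABA, with 5 G reads of 2471 (0.202%, 0.0657 to 0.472) against 10 of 5140 elsewhere (0.195%, 0.0933 to 0.358). EEF1D had 0 G reads of 1147 beside a 3′ A, which allows up to 0.262%, and 9 of 5631 elsewhere (0.160%).

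**Figure D4:**
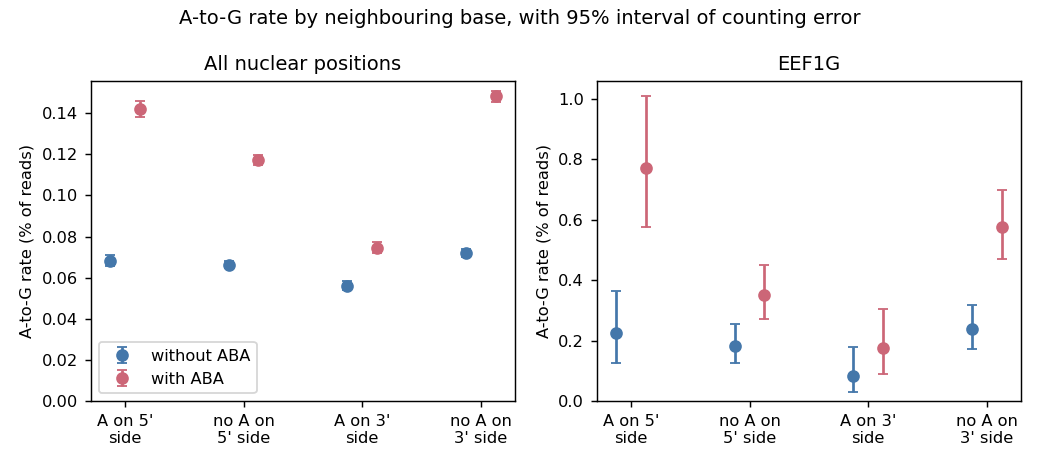
A-to-G rate in percent of reads by whether the base on the 5′ or the 3′ side is a listed A, for nuclear positions with 20 A or G reads in each library, without variant-like ones (left) and EEF1G (right, on its own scale), with 95% intervals of counting error. In EEF1G with ABA the rate is 0.770% beside a 5′ A and 0.175% beside a 3′ A.

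The A-to-G rate of all nuclear positions was higher at deeper positions, so that the members were also set against positions of like depth. Depth here is the mean of both libraries, over positions listed in both and not variant-like. Nuclear positions of 50 to under 100 reads had rates of 0.106% without ABA and 0.195% with ABA. EEF1G positions of that depth, 195 in number, had 0.224% (0.152 to 0.318) and 0.540% (0.427 to 0.673). At 100 reads or more the nuclear rates were 0.162% and 0.310%. EEF1G, with 79 such positions, had 0.142% (0.0797 to 0.235) and 0.386% (0.269 to 0.536), whose intervals hold the nuclear values. The 33 EEF1G positions of 20 to under 50 reads went the other way, with 4 G reads of 1352 (0.296%, 0.0807 to 0.756) and 3 of 1420 (0.211%, 0.0436 to 0.616), a ratio of 0.714 (0.105 to 4.22).

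At the depths given here the intervals of the exchange subunits held the nuclear rates, but they are wide. At 20 to under 50 reads the nuclear rates were 0.0500% and 0.0926%. EEF1B2 had 0.0418% (0.00506 to 0.151) and 0.174% (0.0750 to 0.342) there, and EEF1D had 0.0524% (0.0108 to 0.153) and 0.148% (0.0677 to 0.281). With ABA both stood above the nuclear rate, on 8 and 9 G reads. At 50 to under 100 reads EEF1B2 had 0.0608% and 0.215% (0.0865 to 0.443). EEF1D had 0 of 756 and 0 of 861 there, which allow up to 0.397% and 0.348%. Reads with C or T at nuclear A positions were also more frequent at deeper positions, from 0.0159% without ABA at 20 to under 50 reads to 0.0701% at 100 or more. The part of depth in the higher level of EEF1G was not tested beyond these classes.

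**Figure D5:**
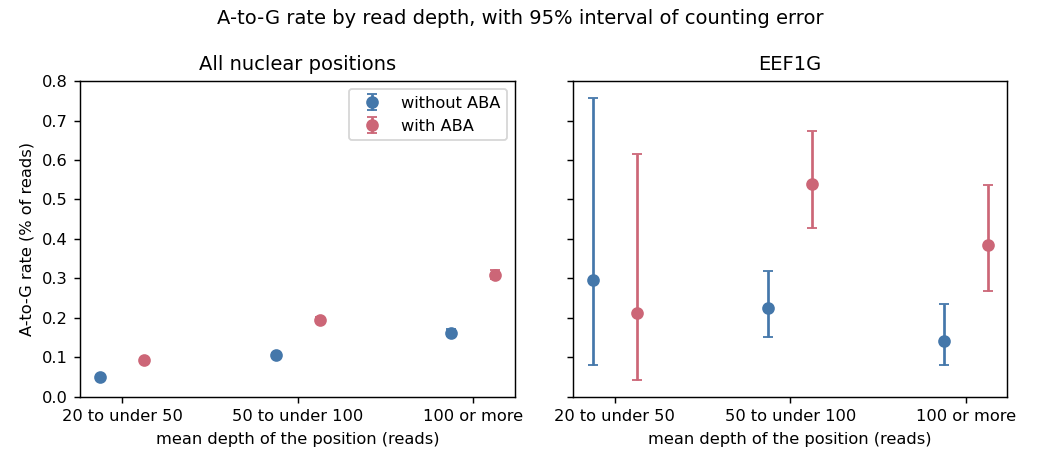
A-to-G rate in percent of reads by mean depth of the position, for nuclear positions listed in both libraries, without variant-like ones (left) and EEF1G (right), with 95% intervals of counting error. With ABA, EEF1G stands at 0.540% against 0.195% for these nuclear positions at 50 to under 100 reads, and at 0.386% against 0.310% at 100 or more.

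Read depth, a measure of transcript level relative to all nuclear reads, barely differed between the libraries for EEF1G and EEF1B2. For EEF1D it was higher with ABA. At positions listed in both libraries, EEF1G had 628 base reads per 1000000 nuclear base reads without ABA and 625 with ABA, a ratio of 0.996 (0.979 to 1.01). EEF1B2 had 226 and 227, a ratio of 1.003 (0.974 to 1.03). EEF1D had 168 and 184, a ratio of 1.10 (1.06 to 1.14). Nuclear segments with 1000 or more base reads in each library had a median ratio of 1.02, with 5 in 100 of them below 0.788 and 5 in 100 above 1.28. All 3 members lay inside this range. Reads are not independent molecules, so these intervals are too narrow. In RNA from whole cultures, fewer cells with a transcript and less of it per cell cannot be told apart.

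Other genes of translation elongation were read in the same way. The A-to-G rate was higher with ABA in 5 of 5, and the interval of the ratio lay above 1 in 2 of them. Over all nuclear positions it was also higher, by a ratio of 1.70, or 2.01 without variant-like positions. The list was fixed with earlier results of these data known, so nothing is read from the count. EEF1A1, which encodes eEF1A, had 82 of 34434 G reads without ABA (0.238%) and 136 of 29123 with ABA (0.467%), a ratio of 1.96 (1.48 to 2.61). EEF2, the translocation factor, had 0.144% and 0.370%, a ratio of 2.57 (2.05 to 3.23). EEF1G lay within the intervals of EEF1A1 in both libraries. RefSeq lists 50 pseudogenes named after EEF1A1, so its reads that fit a copy as well are uncertain too. Its listed positions numbered 831 without ABA and 599 with ABA. EIF5A, which helps ribosomes over difficult sequences, had 6 and 13 G reads, 0.0817% and 0.144%. VARS1, the valyl-tRNA synthetase bound by the eEF1B complex, had 2 and 8 G reads, 0.0250% and 0.0919%. TUFM, the mitochondrial counterpart of eEF1A, had 4 and 12, 0.0452% and 0.111%. With ABA, EIF5A and TUFM lay within the intervals of both EEF1B2 and EEF1D, and VARS1 lay within that of EEF1D. Shares at least 10 points higher with ABA were found at 3 of 425 EEF1A1 positions and at 0 in the other 4 genes. Of all nuclear positions with 20 reads in each library, 0.0234% were higher by this rule.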

How the data were processed

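The authors deposited raw read counts of the 4 bases per listed position, with 1 file per strand and library. A read cutoff of 5 for single bases stands in the file headers, and the lowest depth found was 6 reads. The submitters' processing notes name cutadapt, HISAT2 and hg19. The counting program and any removal of duplicates are not given in the sources used here. Minus-strand T-to-C was read as A-to-G. 1 read covers several positions and no molecular identifiers are named, so intervals cover counting error only and are too narrow.

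Shares have Clopper-Pearson intervals and ratios exact conditional binomial ones, at 95%. A count of 0 is given the limit of 3 reads. Site comparisons need 20 A or G reads in both libraries. Sites described have at least 3 G reads in a library, up to 8 per gene by size of change. The 6 patterns and the single segments named were picked once their values were known. The members and lists were chosen with earlier results of these data known. Intervals of the 5 other genes come from general knowledge of hg19. The plan kept these genes only if listed A positions matched their protein sequences. Neither this check nor the placing of sites in proteins was run, as no protein table was used, and the genes were kept on interval length instead. All 8 interval lengths are within 2% of the RefSeq gene lengths (GRCh38.p14), on the same chromosomes. RefSeq lists 24 pseudogenes named after the 3 members, 8 each, and reads shared with these copies are uncertain. Markers of the cell line were not checked. The rate and size calculations were tested on simulated data with independent reads. The changed positions simulated had a higher share than any member site, so recovery of smaller shares was not tested. The software was matplotlib 3.10.9, scipy 1.17.1, pandas 2.3.3 and numpy 2.4.6 under Python 3.11.15. Alternatives to the positions used, the coverage minimum, the size of change and the depth measure were run.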

Additional observations from a re-analysis of the deposited data

How the results depend on the processing

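Of 97 values under alternatives, 87 stayed within the counting interval of the main value, or within 1.5 times a main count. The A-to-G ratio was above 1 in 23 of 23 alternatives that gave one, over the 3 genes. These reuse reads of the same 2 libraries, so they are not separate support. For EEF1D the interval reached below 1 in every alternative, with lower limits of 0.593 to 0.865. Leaving out variant-like positions could not change a ratio, since no member position was variant-like. Leaving out positions with 3 or more G reads, a choice made after seeing the data, took EEF1G to a ratio of 1.43 and a rate with ABA of 0.266%. The EEF1B2 ratio was 2.84 (0.84 to 12.2) without its top site, 2.80 (0.671 to 16.4) without segment 2 and 3.54 (0.673 to 34.9) with 50 reads required in each library, and these intervals reach below 1. At that depth, also a choice made after seeing the data, EEF1D had rates of 0 and 0 and no ratio. Leaving out 1 segment at a time gave ratios of 2.22 to 2.64 for EEF1G, 2.80 to 4.72 for EEF1B2 and 2.47 to 4.17 for EEF1D. A change of at least 5 points gave 6 higher member positions (824 nuclear, 0.229%) and 1 of at least 20 points gave 0. Over all listed positions the relative depth ratios were 1.09 for EEF1G, 1.10 for EEF1B2 and 1.22 for EEF1D, and the median over positions was 1.04 for EEF1G. The nuclear base reads that depth is scaled to change with this choice. They were 50748953 without ABA and 44914317 with ABA over all listed positions, against 41124763 and 40037927 at positions listed in both. No paired analysis was possible because each condition has 1 library. EEF1B2 and EEF1D had 4 and 3 G reads without ABA, which limits the precision of their ratios. Beyond the total that depth is scaled to, the cause of the shifts under alternatives was not tested.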
